A study of Mus musculus with 4 samples.

Results

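Hox genes of clusters A to D were measured in the adult mouse ureter, the muscular tube that carries urine from kidney to bladder. Members were all genes with a probe set that the array annotation assigns to a single symbol of the form Hoxa, Hoxb, Hoxc or Hoxd plus a number, which gave 33 genes on 48 probe sets among 18193 named genes on 45101 probe sets. Hox genes without such a probe set were not analysed here. All 4 samples formed 1 group, ureter of adult male FVB/N mice at Theiler stage 28 that carried the SMGA/EGFP transgene, whose green fluorescence marks tissue expressing smooth muscle gamma actin. Their mothers were FVB/N and their fathers carried the transgene. The dissection between kidney and bladder was guided by that fluorescence, the samples were not pooled, and each was hybridised to 1 Affymetrix MOE430 array after 2 rounds of amplification. No sample lacks the transgene, so nothing here sets a treated or mutant ureter against a control. The labels do not say that the samples came from separate animals, and p-values measure only the spread between these samples, called replicates 1 to 4 in an order without meaning.

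Hox genes encode homeodomain transcription factors and lie in the genome in the order in which they are used along the head-to-tail axis of the embryo. Genes of low paralog number act towards the head and genes of high number towards the tail, and members of different clusters that share a number, called paralogs, can often stand in for each other. In the urogenital tract the tail-ward genes pattern the kidney, its ducts and the reproductive ducts, and the paralog group 11 genes together are needed for the embryonic kidney to form.

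Levels are log2(intensity + 16) of the gene's probe set with the highest mean, given as mean ± SD with n = 4. A gene was called above background where at least 1 of its probe sets lay above each array's own threshold in limma's moderated one-sided test with Benjamini-Hochberg adjustment over all probe sets (adjusted p under 0.05). The threshold was the 95th percentile of 85 probe sets for smell and taste receptors, at 7.25, 6.99, 7.57 and 7.36 in replicates 1 to 4. Because each probe set binds its target with its own strength, a level says how one gene varied between samples and does not rank one Hox gene against another. The precision of every value is limited by the number of arrays. In whole tissue, fewer cells of a type and less RNA per cell cannot be told apart.

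The arrays held RNA of marker genes of the ureter's own cell types and also of marker genes of other organs. All 5 smooth muscle, all 5 urothelial, all 5 fibroblast and all 4 endothelial marker genes were above background, with Actg2 at 11.91 ± 0.96, Upk1b at 15.01 ± 0.56, Col3a1 at 15.15 ± 1.20 and Cdh5 at 11.45 ± 1.12. In replicate 3 all 5 skeletal muscle genes were over the threshold, against 0 or 1 in the other samples, and Myh4 had 16.39. All 5 liver genes were over the threshold in replicates 1 and 3, and all 5 seminal vesicle and prostate genes in replicates 1 and 2. Of 5 kidney genes 0 were called, with Umod at 5.32 ± 0.66, although Aqp2 was over the threshold in replicates 2, 3 and 4. Of 2 measured genes of vas deferens and epididymis 0 were called, beside 57.8% of all named genes. Probe sets at the 3' end of Gapdh gave 18.8 to 36.9 times the signal of those at its 5' end, and for Actb the ratio was 4.43 to 19.8. In these ratios RNA integrity and the rounds of amplification cannot be told apart. Their bearing on the Hox probe sets was not tested.

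Of the 33 Hox genes 13 were above background (39.4%), against 57.8% of all named genes. At the level of probe sets, 17 of 48 were called, against 40.9% of all probe sets. All 13 called genes were over the threshold in every sample. They were Hoxa3, Hoxa5, Hoxa9, Hoxa10 and Hoxa11 in cluster A, Hoxb2, Hoxb3 and Hoxb6 in cluster B, Hoxc6 in cluster C, and Hoxd8, Hoxd9, Hoxd10 and Hoxd13 in cluster D. By cluster this was 5 of 9 in A, 3 of 9 in B, 1 of 7 in C and 4 of 8 in D. By position it was 3 of 7 in paralog groups 1 to 3, 4 of 12 in groups 4 to 8 and 6 of 14 in groups 9 to 13. None of the 3 measured group 4 genes, Hoxa4, Hoxb4 and Hoxc4, was called, while both measured group 6 genes, Hoxb6 and Hoxc6, were. Groups 1, 7 and 12 likewise had no called gene, with 2, 2 and 1 measured. Both group 6 calls were lost at a stricter threshold, described below. The lowest adjusted p among the group 4 genes was 1, and 0 of the 3 had an unadjusted p under 0.05.

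**Figure D1:**
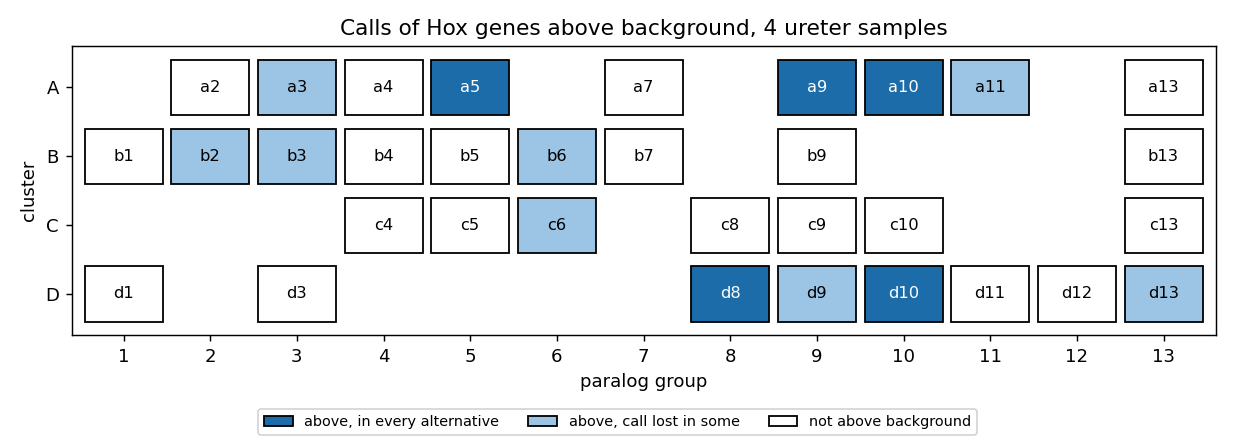
Each box is 1 Hox gene, with the cluster from A to D down the page and the paralog group across. Dark boxes mark the 5 genes above background in all 13 alternative settings, pale boxes the 8 whose call was lost in some, and white boxes the 20 not above background. Dark boxes are Hoxa5, Hoxa9, Hoxa10, Hoxd8 and Hoxd10. The box of Hoxd13 is pale only because 1 setting, chosen after the values were seen, left out its called probe set.

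The calls that held in all 13 alternative settings were those of Hoxa5, Hoxa9, Hoxa10, Hoxd8 and Hoxd10. With a stricter threshold, the median plus 3 median absolute deviations of the receptor probe sets, 6 Hox genes were called, against 39.4% of all named genes. The 6 were these 5 and Hoxd13. Of the 13 settings Hoxd13 kept its call in 12. It lost the call only where its called probe set was left out, a setting chosen after the values were seen. Without replicate 3, the sample with skeletal muscle RNA, 12 Hox genes were called, against 57.9% of all named genes. Of these, 6 were in groups 9 to 13, and the lost call was that of Hoxb2.

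In cluster A the called genes of high paralog number were neighbours. Hoxa9, a gene known from blood progenitor cells as well as the trunk, had levels of 14.63, 14.83, 14.56 and 14.77 in replicates 1 to 4, with a mean of 14.70 ± 0.13 (adjusted p = 1.49e-08). The samples lay close together, and the SD was the lowest among the 13 called Hox genes. A second Hoxa9 probe set was also called, at 9.35 ± 0.39, with replicate 2 lowest at 8.76. Hoxa10, which patterns the uterus and the vas deferens, had 12.51, 12.78, 12.11 and 12.32, with a mean of 12.43 ± 0.29 (adjusted p = 2.59e-07). Its second probe set was called too but put the samples in another order, with 9.23, 7.83, 10.44 and 9.75, so that replicate 2 was highest by one probe set and lowest by the other. Hoxa11, one of the group 11 genes needed for the embryonic kidney, had 8.72, 8.61, 9.08 and 9.05, with a mean of 8.87 ± 0.23 (adjusted p = 0.000468). All of its samples were over the threshold by more than 1 log2 unit, although the call was lost with the median plus 3 median absolute deviations. Hoxa13, at the tail end of the cluster and active in hands, feet and the lower urogenital tract, had 7.19, 7.62, 7.86 and 7.68 and was not called (adjusted p = 0.386).

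In cluster D the called genes were Hoxd8, Hoxd9 and Hoxd10, which are neighbours, and Hoxd13. Hoxd8 had 12.44, 12.18, 11.32 and 12.24, with a mean of 12.05 ± 0.50 (adjusted p = 9.24e-07), and replicate 3 was lowest. Its second probe set, at 10.76 ± 0.56, was lowest in the same sample. Hoxd9 had 10.19, 10.24, 10.03 and 10.48, with a mean of 10.24 ± 0.19 (adjusted p = 6.60e-06). Its call was lost with the median plus 3 median absolute deviations, where it lay 0.85 log2 units over the threshold (adjusted p = 0.0771). Hoxd10, a regulator of hindlimb motor neurons, had 11.69, 10.92, 9.89 and 10.46, with a mean of 10.74 ± 0.76 (adjusted p = 2.85e-05). Replicate 1 was highest and replicate 3 lowest for Hoxd10, and all samples lay well over the threshold. The next genes of the cluster fell on the other side of the call. Hoxd11, a partner of Hoxa11 in kidney and forearm, had 6.23, 6.45, 6.19 and 7.85, and was over the threshold in replicate 4 alone (adjusted p = 1). Hoxd12 had 4.58, 4.50, 4.38 and 6.80 and was over the threshold in 0 samples (adjusted p = 1).

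Hoxd13, which patterns digits and the lower urogenital tract, gave opposite answers with its 2 probe sets. The probe set annotated to an expressed sequence tag had 14.94, 15.24, 13.99 and 14.40, with a mean of 14.64 ± 0.56 (adjusted p = 9.41e-08). The probe set annotated to a RefSeq transcript had 4.82, 4.79, 4.58 and 4.51, with a mean of 4.67 ± 0.15 (adjusted p = 1), and was under the threshold in every sample. The call of Hoxd13 therefore rests on 1 probe set, and whether that probe set measures Hoxd13 transcripts was not tested. Without it, an alternative chosen after the values were seen, 12 Hox genes were above background, against 57.8% of all named genes. The counts were then 3 of 8 in cluster D and 5 of 14 in groups 9 to 13.

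The promoter windows of Hoxa9, Hoxd10, Hoxd12 and Hoxd13 are shown because they stand for a gene with closely agreeing samples, a pair in 1 cluster on opposite sides of the call, and the gene whose probe sets disagree. Sequences are from RefSeq, build GRCm38.p6, 5′ to 3′ along the gene, and hold the 250 bases before the annotated start. Capitals mark matches on either strand to TATAAA, the TATA box, CCAAT, the CCAAT box, and TGATTNAT, a site form bound jointly by Hox and Pbx proteins. The Hoxa9 window is chr6:52227371-52227620 on the minus strand, and the others lie on the plus strand at chr2:74691641-74691890 for Hoxd10, chr2:74674763-74675012 for Hoxd12 and chr2:74667975-74668224 for Hoxd13.
Hoxa9: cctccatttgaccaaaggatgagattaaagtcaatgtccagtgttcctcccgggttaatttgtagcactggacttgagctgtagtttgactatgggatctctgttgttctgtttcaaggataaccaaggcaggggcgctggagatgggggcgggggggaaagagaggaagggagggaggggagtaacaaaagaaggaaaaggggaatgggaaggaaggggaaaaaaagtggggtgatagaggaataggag
Hoxd10: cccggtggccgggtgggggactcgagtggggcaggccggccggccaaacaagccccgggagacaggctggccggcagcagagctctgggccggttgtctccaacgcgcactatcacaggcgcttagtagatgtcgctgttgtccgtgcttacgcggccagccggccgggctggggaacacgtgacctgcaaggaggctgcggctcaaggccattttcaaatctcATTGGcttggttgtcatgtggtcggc
Hoxd12: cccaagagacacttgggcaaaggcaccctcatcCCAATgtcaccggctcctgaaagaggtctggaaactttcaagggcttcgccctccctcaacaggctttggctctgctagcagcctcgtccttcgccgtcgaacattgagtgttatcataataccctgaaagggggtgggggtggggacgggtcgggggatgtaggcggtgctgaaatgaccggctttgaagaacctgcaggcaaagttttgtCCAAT
Hoxd13: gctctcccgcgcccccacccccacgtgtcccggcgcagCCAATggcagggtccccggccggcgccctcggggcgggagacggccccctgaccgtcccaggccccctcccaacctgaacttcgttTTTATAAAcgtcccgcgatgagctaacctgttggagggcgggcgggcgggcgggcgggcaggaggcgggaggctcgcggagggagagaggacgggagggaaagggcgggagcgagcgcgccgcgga
No motif was found in the Hoxa9 window, and a CCAAT match ended 22 bases before the start of Hoxd10. In the Hoxd12 window 2 CCAAT matches ended 213 bases and 1 base before the start. The Hoxd13 window held 1 CCAAT match, ending 208 bases before the start. It also held a pair of overlapping TATAAA matches on opposite strands, 126 to 119 bases before the start. Whether any match acts as a promoter element was not tested. Windows were found for 19 of the 33 Hox genes, 21 windows in all. A CCAAT match stood in 5 of 10 windows of called genes, 6 of 11 windows of uncalled genes and 33.8% of all 32851 windows. TATAAA was in 2 of 10, 0 of 11 and 12.4%, and TGATTNAT in 0 of 10, 2 of 11 and 2.82%. The median observed-to-expected ratio of CpG dinucleotides was 0.721 in windows of called genes, 0.52 in those of uncalled genes and 0.373 in all windows. The ranges of called (0.266 to 1.11) and uncalled genes (0.16 to 0.88) overlapped, and no test was made.

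**Figure D2:**
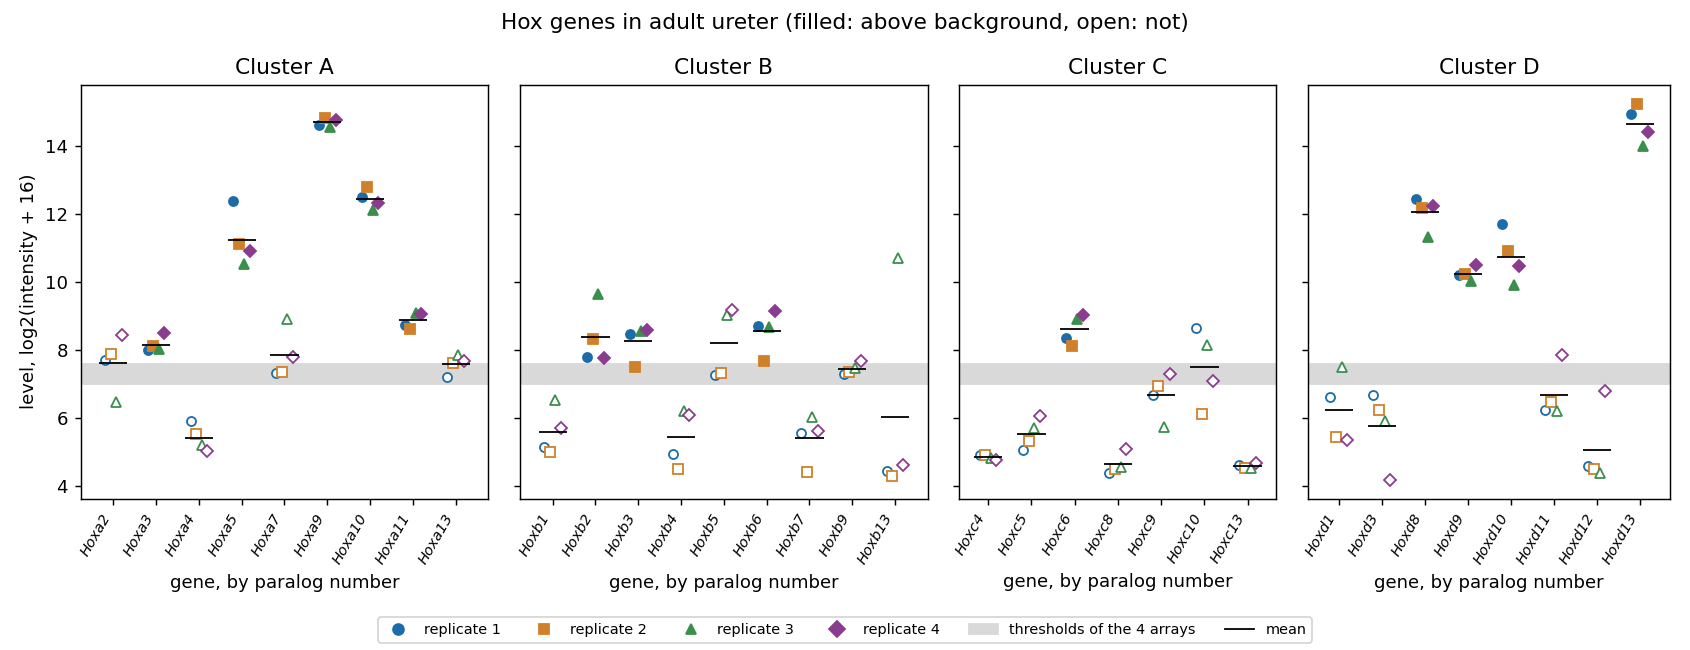
Levels, log2(intensity + 16), of the 33 Hox genes by cluster and paralog number, with 1 point per sample, a line at the mean, and filled points for genes above background. The grey band spans the thresholds of the arrays, 6.99 to 7.57. The 4 points of Hoxa9 lie between 14.56 and 14.83, and Hoxb13 has 1 sample, replicate 3, at 10.70.

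Among the central genes 4 were called. Hoxa5, known for its role in airway and lung formation, had 12.39, 11.12, 10.53 and 10.91, with a mean of 11.24 ± 0.81 (adjusted p = 1.10e-05). Replicate 1 was highest by this probe set, while the second called probe set, at 9.58 ± 0.76, was highest in replicate 4. The first probe set ends in _x_at. With probe sets ending in _x_at or _s_at left out, the mean distance over the threshold was 2.29 log2 units, against 3.95 with them. Hoxb6 had 8.69, 7.66, 8.68 and 9.14, with a mean of 8.54 ± 0.62 (adjusted p = 0.00461), and replicate 2 was lowest. Hoxc6 was the only gene of its cluster with a call. It had 8.35, 8.12, 8.92 and 9.04, with a mean of 8.61 ± 0.44 (adjusted p = 0.00207), and its other probe sets, at 8.17 ± 1.00 and 5.58 ± 0.76, were not called (adjusted p = 0.0536 and 1).

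Among the head-ward genes 3 were called, all near the threshold. Hoxa3, which is needed for the thymus and parathyroid glands, had 7.99, 8.10, 8.02 and 8.49, with a mean of 8.15 ± 0.23 (adjusted p = 0.0242), and 1 of its 4 probe sets was called. That probe set is of a kind designed against more than a single transcript, and the adjusted p was 0.178 when this kind was left out. Hoxb2, a hindbrain patterning gene, had 7.78, 8.31, 9.64 and 7.76, with a mean of 8.37 ± 0.88 (adjusted p = 0.0225). Replicate 3 was highest, and without it the adjusted p was 0.0882. Hoxb3 had 8.48, 7.48, 8.55 and 8.57, with a mean of 8.27 ± 0.53 (adjusted p = 0.0133), and 1 of its 2 probe sets was called. Replicate 2 was low and the other samples lay close together. Each of these calls was lost when some single sample was left out. The count in groups 1 to 3 was 1 without replicate 1, without replicate 2 or without replicate 4, and 2 without replicate 3.

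The other 20 Hox genes were not above background. Of these, 12 were under the threshold in every sample, 7 were over it in 1 to 3 samples, and Hoxa7 was over it in all 4, at 7.32, 7.34, 8.90 and 7.78 (adjusted p = 0.159). Hoxb5, known from lung and gut nerve development, came closest, with 7.24, 7.33, 9.02 and 9.16 (adjusted p = 0.059). Replicates 3 and 4 were high for Hoxb5 and the other two lay near their thresholds, and without replicate 1 it was called (adjusted p = 0.0319). Hoxa2, which shapes the second branchial arch, had 7.62 ± 0.84, Hoxb9 had 7.44 ± 0.17 and Hoxc10, a hindlimb gene, had 7.49 ± 1.12. Hoxb7, whose promoter is used to drive transgenes in the embryonic ureteric bud, had 5.54, 4.39, 6.03 and 5.61, under the threshold in every sample. A probe set shared by Hoxb8 and Hoxb7, and so no member, had 6.82, 6.74, 8.97 and 5.83 and was not called either. Hoxb1 at 5.59 ± 0.69, Hoxb4 at 5.43 ± 0.85 and Hoxa4 at 5.41 ± 0.39 were likewise under it throughout. In cluster C the uncalled genes were Hoxc4 at 4.84 ± 0.08, Hoxc5 at 5.53 ± 0.45, Hoxc8 at 4.62 ± 0.30, Hoxc9 at 6.66 ± 0.67, Hoxc10 and Hoxc13, the hair gene, at 4.58 ± 0.07. In cluster D, Hoxd1 had 6.22 ± 1.02 and Hoxd3 had 5.74 ± 1.09. A level under the threshold shows that this array did not measure the gene above its background, not that the gene is silent.

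The 11 Hox genes with 2 or more probe sets show how far a call depends on the probe set. For Hoxa5, Hoxa9, Hoxa10 and Hoxd8 every probe set was called, and for Hoxa4, Hoxb4 and Hoxc5 none was. The probe sets of 4 genes, Hoxa3, Hoxb3, Hoxc6 and Hoxd13, lay on both sides of the call.

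**Figure D3:**
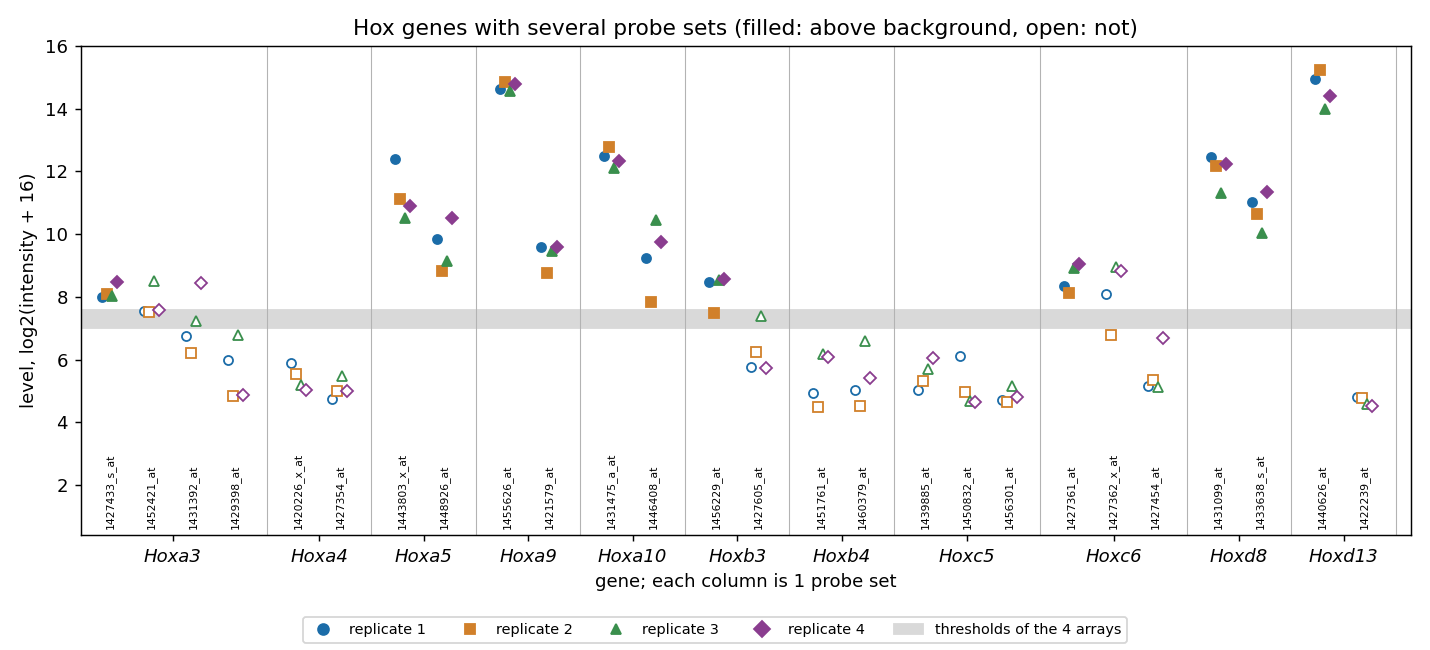
Each column is 1 probe set of a Hox gene that has several, with 1 point per sample on the scale log2(intensity + 16), filled where the probe set was above background. The grey band spans the array thresholds. For Hoxd13 one probe set lies between 13.99 and 15.24 and the other between 4.51 and 4.82.

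Hoxb13, a homeobox gene known for its lasting expression in the prostate, was high in a single sample. Its level was 10.70 in replicate 3, against 4.44, 4.30 and 4.60 in the other samples, and it was not above background over the 4 samples (adjusted p = 1). Replicate 3 also had the highest level of Pbsn, the probasin gene of the mouse prostate, at 15.41, against 9.10, 9.42 and 8.80 in the other samples. Of 3 measured prostate genes added after these values were seen, Msmb and Spink1 were far higher in that sample and Tgm4 was not. Msmb, a secreted prostate protein, had 16.27 in replicate 3 and 4.76 to 7.43 elsewhere, and Spink1, a protease inhibitor, had 14.97 and 4.63 to 8.76. Tgm4, a prostate transglutaminase, had 9.09, 8.78, 9.39 and 8.16 in replicates 1 to 4, over the threshold in every sample. The summed level of these 3 genes was 16.77 in replicate 3, against 8.76 to 9.88. Of the 5 genes of seminal vesicle and prostate, 2 were over the threshold in replicate 3, with 5, 5 and 1 in replicates 1, 2 and 4. Summed, they reached 15.43 in replicate 3, against 12.76, 16.01 and 9.35 in those samples, and Pbsn is one of them. The seminal vesicle gene Svs4 was low in replicate 3 at 6.55, with 11.96, 14.80 and 6.63 in the others. The 5 skeletal muscle genes had a summed level of 17.13 in replicate 3, against 7.89 to 8.68. The part of these tissues in the Hoxb13 level was not tested. The other group 13 genes had no such gap between samples. Hoxa13 was also highest in replicate 3, at 7.86, but differed by only 0.67 log2 units between its highest and lowest sample, Hoxc13 was under the threshold in every sample, and the called Hoxd13 probe set was lowest in replicate 3.

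**Figure D4:**
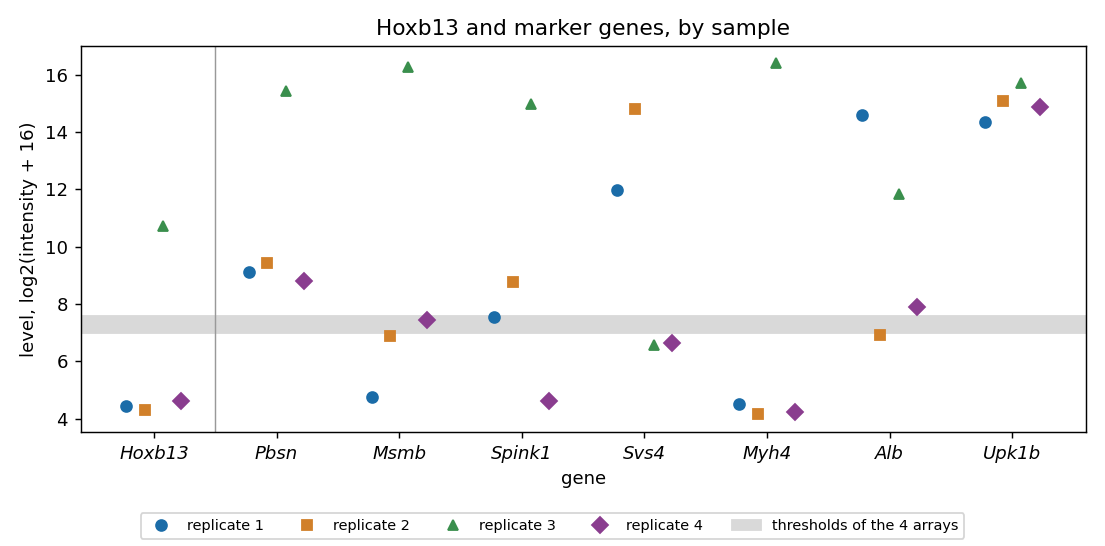
Levels, log2(intensity + 16), of Hoxb13 and of marker genes of prostate (Pbsn, Msmb, Spink1), seminal vesicle (Svs4), skeletal muscle (Myh4), liver (Alb) and urothelium (Upk1b), with 1 point per sample. Hoxb13 is at 10.70 in replicate 3 and at 4.30 to 4.60 in the others, and Pbsn, Msmb, Spink1 and Myh4 are also highest in replicate 3.

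The number of Hox genes over the threshold was similar in the samples, at 17, 18, 18 and 19 of 33 in replicates 1 to 4, against 66.9%, 68.5%, 67.4% and 65.9% of all named genes. The spread of the 13 called Hox genes was tested against the spread usual for probe sets of like level, and 0 passed, as did 0% of all 10524 genes tested. At an unadjusted p under 0.05 there were 0 Hox genes, and 1155 of 18421 probe sets. The median SD of the called Hox genes was 0.50, against 0.41 for all called genes. The 6 called genes of groups 9 to 13 were on the whole lower in replicate 3, where 1 of 6 exceeded the mean of the other samples and the median difference was -0.35 log2 units, against -0.05 for all called genes. Under quantile normalization the values were 0 of 6, -0.38 and -0.12. Without Hoxd13, 1 of 5 exceeded the mean of the other samples and the median difference was -0.28, and under quantile normalization 0 of 5 and -0.35. The 7 called genes of lower paralog number had a median difference of 0.19 in replicate 3 as deposited and -0.22 under quantile normalization, so no direction is given for them. Over all 13 called Hox genes the median difference was -0.18 as deposited and -0.35 under quantile normalization. These 13 include the 6 genes of groups 9 to 13. Of the 7 others, 4 exceeded the mean of the other samples in replicate 3 as deposited and 2 under quantile normalization. Lower levels were thus also found outside groups 9 to 13, and a difference between the sets was not tested. Genes on the same arrays are not replicates, and whether replicate 3 differed for them as a set was not tested. In replicate 3 the 5 fibroblast markers had a summed level of 14.25, against 16.21 to 16.77 in the other samples, and the 4 endothelial markers 11.18, against 12.65 to 13.37. The part of these cell types in the Hox levels was not tested.

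Cofactors of Hox proteins were present. Pbx and Meis proteins are homeodomain partners that bind DNA together with Hox proteins. Of 9 measured genes for such partners and their regulators 6 were above background, beside 57.8% of all named genes. Pbx2 had 10.70 ± 0.60 and Pbx3 had 10.59 ± 0.12, and both were called, while Pbx4 at 6.17 ± 0.75 was not. The other uncalled genes were Meis3 at 5.77 ± 0.62 and Pknox1 at 7.32 ± 0.98. Meis2, named after its values were seen, had 15.32, 14.56, 14.10 and 15.03 in the 4 samples.

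Chromatin regulators that keep Hox genes off or on were mostly above background, and 57.8% of all named genes were. Polycomb proteins hold silent Hox genes off, and 13 of 14 measured genes were called, with Ezh1 at 11.41 ± 0.29, Ezh2 at 12.02 ± 0.15 and Eed at 13.85 ± 0.25. The exception was Pcgf2 at 6.78 ± 0.68. Trithorax proteins and histone demethylases keep them on, and all 11 measured genes were called, with Kmt2a at 10.22 ± 0.14, Kmt2b at 10.99 ± 0.60 and Men1 at 8.79 ± 0.54. Retinoic acid, which induces head-ward Hox genes in embryos, is made, sensed and degraded by products of 12 measured genes, of which 8 were called, a share near the 57.8% of all named genes. Aldh1a1 had 15.10 ± 0.21, Aldh1a2 had 8.09 ± 0.28 and Aldh1a3 had 10.26 ± 1.01, and these enzymes of its synthesis were all called. Of the degrading enzymes Cyp26b1 was called, at 11.13 ± 0.93, and Cyp26a1 was not, at 6.01 ± 0.67. The other genes not called were Rara, Crabp1 and Crabp2.

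The homeobox genes nearest in descent to the Hox clusters were not measured above background. Of 6 ParaHox genes 0 were called by limma and 0 had an unadjusted p under 0.05, with Gsx1 at 5.42 ± 1.16, Gsx2 at 4.76 ± 0.84 and Pdx1 at 5.29 ± 1.38. Of 8 measured genes in or next to the clusters 5 were called, a share near the 57.8% of all named genes. Evx1 and Evx2, homeobox genes at the tail ends of clusters A and D, had 6.34 ± 1.17 and 6.57 ± 0.43 and were not called, nor was Skap1 at 6.43 ± 1.47. Skap2, Mtx2, Lnpk, Calcoco1 and Smug1, which are not homeobox genes, were called. Of 6 measured genes that act with group 11 Hox genes in the embryonic kidney 4 were called, again near 57.8%. Eya1 had 10.12 ± 0.70 and Six2 had 8.47 ± 0.22, both called, while Gdnf, the kidney growth factor gene, had 4.53 ± 0.18 and was not.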

How the data were processed

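The values are the authors' deposited linear intensities. Per the submitters' processing notes they came from GCOS, the Affymetrix software, with the algorithm and version not given. With 2% of values trimmed from each end, every array averaged 1500, and the values were used without further scaling. The 64 control probe sets were left out, leaving 45037. The array annotation gives 1 symbol to 34945 probe sets, several to 932 and none to 9160, and 34754 of the named ones were found in the RefSeq table of GRCm38.p6, which changed 0 symbols.

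Tests were run with limma 3.58.1 in R 4.3.3 (lmFit and eBayes with trend and robust settings) on log2(intensity + 16) over all 45037 probe sets. Of the 85 receptor probe sets 0 were called, which is no check of the test because the thresholds were set from these same probe sets. A gene was called if any of its probe sets was. Spread was tested on called probe sets by the ratio of the variance to limma's prior variance (F test, 3 and 5.24 degrees of freedom). On simulated data the first test recovered large known differences, and the second recovered strong spread, and weaker spread only in part. The simulated wide probe sets were kept for the second test whether or not they were called, which was not so in the data. In the data even Alb, at 10.30 ± 3.56, did not pass the F test (adjusted p = 0.36). That 0 genes passed is thus no sign that the samples agreed. The share that the first test recovered at small differences, where Hoxa3, Hoxb2 and Hoxb3 lie, is not given here.

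The members and lists were chosen with earlier results of these data known. Every Hox gene is named. Values per sample are given for called members and for members over a threshold whose samples differ by 3 or more log2 units, and for Hoxa7, Hoxa13, Hoxb5, Hoxb7, Hoxd11 and Hoxd12, chosen after their values were seen. Of other lists the first 3 measured genes are named, and any other gene was named after its values were seen. Alternatives were pseudocounts of 1 and 64, quantile normalization, thresholds at the 99th percentile or the median plus 3 median absolute deviations, each sample left out, no probe sets ending in _x_at or _s_at, the brightest probe set only, a call without a test, and no filter for the spread test. A further alternative, chosen after the values were seen, left out the Hoxd13 probe set annotated to an expressed sequence tag.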

Additional observations from a re-analysis of the deposited data

Results flagged for a closer look

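A sample far from the other 3 was found in 4 of 33 Hox genes and 5 of 69 other genes. Chance alone gives about 5% of genes such a sample if values are normally distributed, which values near the floor need not be. Marker genes of cell types and of other organs were not counted here. The measure is the gap from that sample to its nearest neighbour as a share of the whole range, set against Dixon's 95% limit. For Hoxb13 it was 0.952, from replicate 3 at 10.70. For Hoxd12 it was 0.917 and for Hoxd11 0.846, both from replicate 4, at 6.80 and 7.85. Hoxd12 was under that array's threshold of 7.36 even there. For Hoxb3 it was 0.915, from replicate 2 at 7.48.

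Among the other genes, the share was 0.929 for Meis1, low in replicate 3 at 12.58 against 13.67 to 13.75. It was 0.865 for Eed, high in replicate 1 at 14.23, and 0.871 for Rnf2, low in replicate 3 at 12.25. It was 0.965 for Rarg, low in replicate 2 at 9.45, and 0.830 for Hoxd3os1, high in replicate 3 at 11.78.

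Some signal from the Hox clusters lay outside the Hox genes themselves. Hoxa11os, an antisense transcript beside Hoxa11, was above background at 10.69 ± 0.47, with 10.74, 10.52, 10.20 and 11.31 in replicates 1 to 4 (adjusted p = 5.28e-06), by 1 of its 2 probe sets. Hoxd3os1 was above background at 10.40 ± 0.93 (adjusted p = 2.48e-05), also by 1 of 2 probe sets, while Hoxd3 was not. Hoxb5os was not above background, at 6.56, 6.91, 10.92 and 8.41. These transcripts were added after the symbols on the arrays had been seen.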

How the results depend on the processing

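Of the recomputed counts 118 stayed within 1.5 times the reported one and 12 did not. At the 99th percentile threshold 9 of 33 Hox genes were called, against 53.9% of all named genes. The count there was 0 in cluster B and 0 in paralog groups 1 to 3. With the median plus 3 median absolute deviations it was 6 for all Hox genes, 3 in cluster A, 0 in cluster B, 0 in cluster C, 0 in groups 1 to 3, 2 in groups 4 to 8 and 30 of 66 for the other lists. That threshold is higher, and the called share of all named genes was 39.4%. It put 6 called genes under the threshold, by mean distances in log2 units of -1.24 for Hoxa3, -0.52 for Hoxa11, -1.01 for Hoxb2, -1.11 for Hoxb3, -0.84 for Hoxb6 and -0.78 for Hoxc6. Without the probe set annotated to an expressed sequence tag Hoxd13 lay at -2.62. Leaving out 1 sample gave 11 to 12 Hox genes, beside 56.4% to 57.9% of all named genes. By cluster it gave 4 to 5 in A, 2 to 3 in B, 1 in C and 4 in D. By position it gave 1 to 2 in groups 1 to 3, 4 to 5 in groups 4 to 8 and 6 in groups 9 to 13. The other lists gave 46 to 47. Both other pseudocounts and quantile normalization kept all 13 calls. The spread test called 0 Hox genes in every setting run. Quantile normalization moved the median of all probe sets by 0.20, 0.36, -0.36 and -0.09 in replicates 1 to 4. No paired analysis was possible because there is only 1 group. Signal near the threshold limits the calls of Hoxa3, Hoxb2, Hoxb3 and Hoxb6, all lost at the 99th percentile threshold (limma adjusted p = 0.0538 for Hoxb6). With the median plus 3 median absolute deviations the calls of Hoxa11, Hoxc6 and Hoxd9 were lost as well.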
